A study of Mus musculus with 30 samples.

Results

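The let-7 family is a group of microRNAs (miRNAs) that share 1 seed sequence, and miR-98 belongs to it. Its members were read here as the 12 hairpin genes of the GENCODE vM21 annotation that encode let-7a, b, c, d, e, f, g and i and miR-98, of 2201 annotated miRNA hairpin genes. In each of the 30 libraries, reads were summed whose whole sequence matched 1 of these hairpins in the sense direction without a mismatch. let-7a, let-7c and let-7f each come from 2 hairpins and were counted as 1 member each, which gave 9 members. Reads that fit several members were kept apart as shared groups. By member, arm and shared group the family had 24 classes with a read, of 3785 classes over all miRNA hairpins.

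The samples were prefrontal cortex of mice aged 6 months on a congenic C57BL/6J background. The AD group was hemizygous for the 5xFAD transgenes, which are known to express mutant human amyloid precursor protein and presenilin 1 in neurons from the Thy1 promoter, and the WT group was their littermates without the transgenes, of both sexes. Small RNA was sequenced from 7 WT and 7 AD samples by traditional-seq and from 8 WT and 8 AD samples by PANDORA-seq. In PANDORA-seq the RNA is treated with the demethylase AlkB and with T4 polynucleotide kinase before adapters are ligated, so that RNAs with methylated bases or with ends that cannot be ligated enter the library. The labels name no drug or other treatment of the mice. The p-values below measure the spread between these samples.

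A miRNA hairpin is cut by Drosha and Dicer, and 1 strand, for let-7 mostly that of the 5′ (5p) arm, is loaded into an Argonaute protein. Its bases 2 to 8, the seed, pair with target mRNAs. In brain, let-7 rises as neural progenitors differentiate, and it represses genes of growth and of the progenitor state. LIN28 blocks the maturation of most let-7 precursors and recruits an enzyme that adds uridines to their 3′ end.

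The mature 5p sequences are shown because reads are assigned to members by a few bases. The other members differ from let-7a at 1 to 4 positions. They were taken from RefSeq for assembly GRCm38.p6, and capitals mark the seed, GAGGUAG in each.
let-7a-5p: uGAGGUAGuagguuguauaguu
let-7b-5p: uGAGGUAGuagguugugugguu
let-7c-5p: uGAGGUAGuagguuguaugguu
let-7d-5p: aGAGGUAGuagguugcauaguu
let-7e-5p: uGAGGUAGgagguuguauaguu
let-7f-5p: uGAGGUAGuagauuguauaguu
let-7g-5p: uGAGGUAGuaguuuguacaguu
let-7i-5p: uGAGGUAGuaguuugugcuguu
miR-98-5p: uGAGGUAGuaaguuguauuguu

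Counted from 1 at the 5′ end and relative to let-7a, let-7b carries A17G and A19G, let-7c carries A19G, let-7d carries U1A and U16C, and let-7e carries U9G. let-7f carries G12A, let-7g carries G12U and U18C, let-7i carries G12U, A17G, U18C and A19U, and miR-98 carries G11A and A19U. All differences lie outside the seed. Of the 11 RefSeq mature miRNAs of the mouse with this seed, 2 lie outside the family, and they were nearly absent: reads at the start of let-7k that fit no other hairpin numbered 9 in traditional-seq and 146 in PANDORA-seq, and for miR-1961 they numbered 1 and 4.

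The hairpins lie on 7 chromosomes of GRCm38, mostly in clusters. On the minus strand of chromosome 13, Mirlet7a-1 (chr13:48538179-48538272), Mirlet7f-1 (chr13:48537829-48537917) and Mirlet7d (chr13:48536012-48536114) lie in exons of the lincRNA gene 6720427I07Rik, 262 and 1715 bases apart. On chromosome 15, Mirlet7c-2 (chr15:85706603-85706697) and Mirlet7b (chr15:85707319-85707403) lie in exons of the noncoding gene Lncppara, 622 bases apart. On chromosome X, Mirlet7f-2 (chrX:151912346-151912428) and Mir98 (chrX:151913214-151913321) lie 786 bases apart in introns of the ubiquitin ligase gene Huwe1. A further 3 hairpins lie beside miR-99, miR-100 or miR-125 genes on the plus strand. They are Mirlet7a-2 (chr9:41536716-41536811), in an intron of 3110039I08Rik and 5212 bases from Mir100, Mirlet7c-1 (chr16:77599657-77599750), in an intron of Mir99ahg and 657 bases from Mir99a, and Mirlet7e (chr17:17830352-17830444), in an intron of Spaca6, 95 bases from Mir99b and 368 bases from Mir125a. Mirlet7g (chr9:106178840-106178927) lies in an intron of Wdr82, and Mirlet7i (chr10:122985640-122985724, minus strand) lies in an exon of the processed pseudogene D630033A02Rik, both without a neighbour of the family.

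The libraries held 9370669 to 17053412 reads in traditional-seq and 54926347 to 105876141 in PANDORA-seq, of which 35.9% to 50.3% and 1.51% to 5.54% matched a miRNA hairpin. The summed level of 5 neuronal and cortical marker miRNAs (miR-124, miR-128, miR-9, miR-138 and miR-132) ran from 88727 to 295486 reads per 1000000 reads of the library (RPM) in traditional-seq. Reads of 43 to 45 nt made up 11.2% to 21.5% of the WT and 2.13% to 10.7% of the AD PANDORA-seq libraries and none of the traditional-seq reads, so RPM in PANDORA-seq also moves with those reads. The library of AD replicate 1 in PANDORA-seq stood apart. There the family took 60.7% of the miRNA reads (95% Wilson interval 60.6% to 60.7%, counting error only), against 22% to 38.3% in the other 7 AD libraries, and results that rest on it are given with and without it. In the same library the summed level of 3 blood miRNAs was 1637 RPM, almost all of it miR-486 at 1629 RPM, against 91.9 to 729 RPM in the other AD PANDORA-seq libraries. Its part in the family's level was not tested.

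Over all libraries 24745824 reads matched the family, in 1448 distinct sequences, from 662878 to 1559025 reads per library in traditional-seq and from 182460 to 2037372 in PANDORA-seq. It made up 19.3% ± 4.93 of the miRNA reads in traditional-seq (SD, n = 14) and 28.7% ± 9.80 in PANDORA-seq (SD, n = 16). In RPM it fell from 79358 ± 13975 to 8899 ± 7136, while other RNAs filled most of the PANDORA-seq libraries. Without AD replicate 1, left out after the data were seen, the PANDORA-seq values were 26.6% ± 5.00 of the miRNA reads and 7252 ± 2838 RPM (SD, n = 15). Only 0.010% of the family's reads also fit a hairpin outside it, nearly all of them the hairpin of let-7k.

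The order of the members differed between the protocols. In traditional-seq, let-7f, let-7i and let-7g took places 1 to 3 in every library. let-7f-5p made up 26.3% to 50.8% of the family's reads in traditional-seq (median 35.1%), let-7i-5p 23.9% to 37.6% (median 28.5%) and let-7g-5p 11.5% to 31.5% (median 21.7%). The ranges of these 3 overlapped one another, and all lay above the highest value of any other member, 7.39% for let-7c-5p. In PANDORA-seq, let-7c-5p was in places 1 to 3 in every library, at 16.4% to 40.2% (median 25.5%). let-7i-5p followed with 4.39% to 31.8% (median 14.6%), let-7f-5p with 8.36% to 17.2% (median 14.4%), let-7a-5p with 9.60% to 16.3% (median 13.9%) and let-7g-5p with 5.76% to 17.1% (median 12.5%). These 4 neighbours did not differ beyond their spread.

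**Figure D1:**
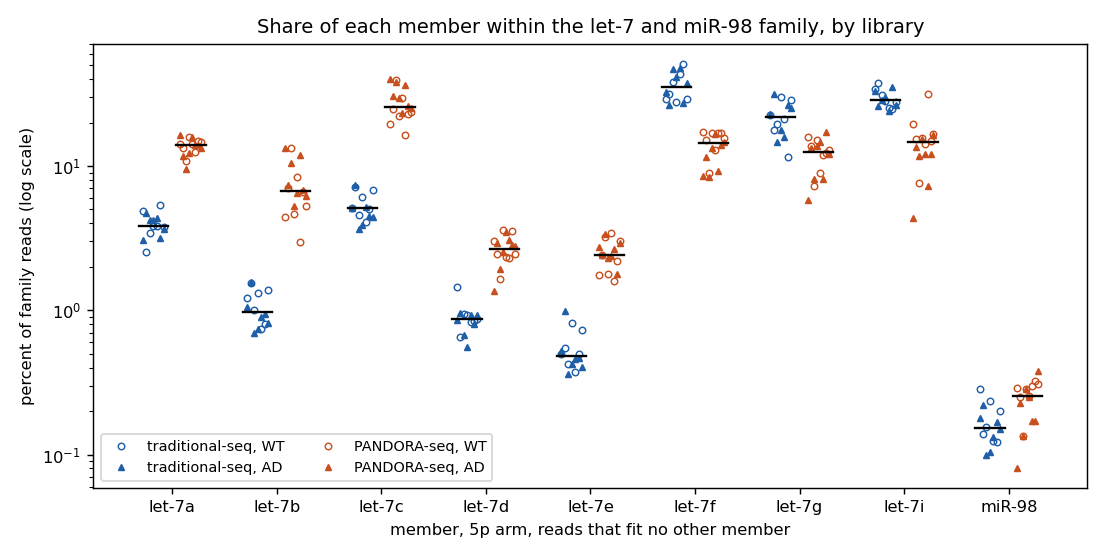
Each point is the percent of the family's reads (log scale) taken by 1 member's 5p arm in 1 library, for reads that fit no other member, with blue for traditional-seq, orange for PANDORA-seq, open circles for WT, filled triangles for AD and black bars for medians. let-7f, let-7g and let-7i have lower medians in PANDORA-seq and let-7a, let-7b, let-7c, let-7d and let-7e higher ones. The ranges of let-7d, let-7g, let-7i and miR-98 overlap between the protocols.

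Of the minor members, let-7b-5p moved from places 6 to 7 in traditional-seq to places 2 to 6 in PANDORA-seq. It held 0.692% to 1.58% of the family's reads in traditional-seq and 2.99% to 13.4% in PANDORA-seq, and let-7d-5p held 0.558% to 1.44% and 1.37% to 3.58%. let-7e-5p rose from a range of 0.363% to 0.985% to one of 1.59% to 3.45%. miR-98-5p was last in all libraries, at 0.0990% to 0.285% and 0.0811% to 0.379%. let-7b and let-7e did not overlap between the protocols, while let-7d did at its edges and miR-98 throughout.

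Ratios between members do not depend on how libraries are scaled. let-7f-5p exceeded let-7c-5p 3.55-fold to 12.9-fold in traditional-seq, whereas the ratio was 0.214 to 1.03 in PANDORA-seq. let-7f, let-7g and let-7i together made up 84.1% to 90.3% of the unshared 5p reads in traditional-seq and 20.2% to 62.7% in PANDORA-seq. Neither measure overlapped between the protocols, in WT or in AD. Both genotypes showed the same order of medians for the ratio of let-7f to let-7c, at 5.73 and 0.704 in WT and 8.44 and 0.415 in AD.

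Counts of all miRNA classes were then compared between the protocols with edgeR's quasi-likelihood test and TMM scaling, calling a Benjamini-Hochberg adjusted p under 0.05 with a fold change over 2. Of 938 classes, 516 (55%) were called higher and 244 (26%) lower in PANDORA-seq. Of the family's 21 classes tested, 13 were higher and 4 lower, with a median log2 fold change of 1.65 beside 1.62 over all classes. The median lies near that of all classes, and the members went both ways. This depends on which classes are counted. With hairpins that have a RefSeq mature miRNA, 16 of 21 were higher with a median of 2.13, beside 266 of 600 with a median of 0.48, and with reads of 20 to 24 nt 10 of 16 were higher with a median of 1.59, beside 280 of 631 with a median of 0.54. Without AD replicate 1 the counts were 12 higher and 4 lower of 21, beside 503 and 241 of 927 classes.

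Among the 5p arms, 4 of 9 were called higher and 3 lower. let-7b had a log2 fold change of 2.36 ± 0.32 (SE; adjusted p = 1.94e-08 by edgeR), let-7c of 1.86 ± 0.27 (adjusted p = 7.61e-08 by edgeR) and let-7e of 1.65 ± 0.25 (adjusted p = 3.02e-07 by edgeR). let-7a reached 1.13 ± 0.26, but it lay below the fold threshold without AD replicate 1 (0.82), and in fits blocked on the library code (0.80) or the replicate number (0.93), so that 3 of 9 were then higher. The library codes occur in both protocols for 14 pairs of libraries, which may come from the same mouse, though no label says so. AD replicate 1 and WT replicate 8 of PANDORA-seq have no such partner and add nothing to a fit with that block. let-7d at 0.80 ± 0.19 passed the adjusted p but not the fold threshold.

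The 3 members that were lower were the 3 most abundant in traditional-seq. let-7f had a log2 fold change of -2.27 ± 0.24 (SE; adjusted p = 7.78e-11 by edgeR), let-7i of -1.89 ± 0.19 (adjusted p = 3.06e-11 by edgeR) and let-7g of -1.61 ± 0.19 (adjusted p = 6.90e-10 by edgeR). miR-98 had -0.24 ± 0.19 (adjusted p = 0.22 by edgeR) and took the other sign with DESeq2. The direction of the higher members rests on the scaling. With all reads of a library as its size, the median over all classes was -0.94 and every member's own 5p reads had a negative log2 fold change, -1.39 for let-7a, -0.27 for let-7b, -0.73 for let-7c, -1.71 for let-7d and -0.96 for let-7e, and the split over all classes turned from 516 higher and 244 lower to 313 and 462. The reads shared by let-7a and let-7c were higher under both, at 4.18 ± 0.31 and 1.62. The order of the members was the same under both, from let-7b at the top to let-7f at the bottom. A change of scaling moves all classes of a library alike, so this order was nearly fixed in advance.

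The members called lower with TMM scaling differ from the others at position 12. let-7f carries A there and let-7g and let-7i carry U, where let-7a, b, c, d and e and miR-98 carry G. GC content of the mature 5p sequence was 45.5% in let-7b, 40.9% in let-7c, let-7d, let-7e and let-7i, 36.4% in let-7a and let-7g, and 31.8% in let-7f and miR-98. Over the 9 members the Spearman rho of the protocol's log2 fold change with GC content was 0.67, with a rho of 0.86 for the content of G and -0.46 for that of C. let-7i stood off this order, since it has the GC content of let-7c and lay at -1.89 where let-7c lay at 1.86.

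Over 486 arms outside the family rho was 0.55 with GC content, 0.24 with the content of G, 0.17 with that of C and -0.55 with the content of A. All arms share the same 30 libraries, so this is a description without a p-value. In the third with the lowest GC content, 22.7% to 45.5%, the median log2 fold change was -2.17 and 32 of 178 arms were positive. In the third with the highest, from 55%, the median was 1.35 over 162 arms. By GC content all 9 members fall in the range of lowest GC content, and 8 of 9 lay above its median, the exception being let-7f.

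**Figure D2:**
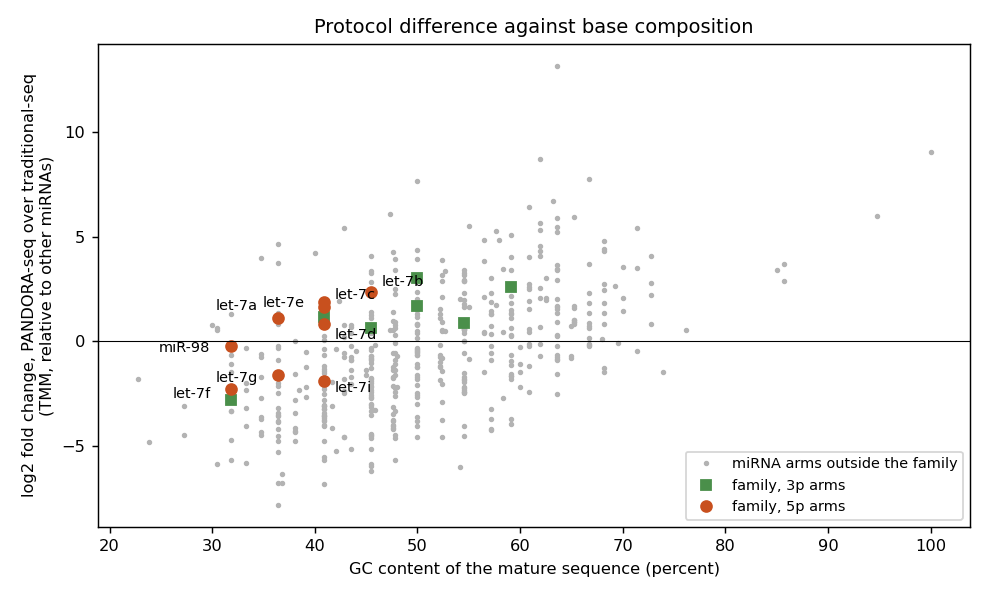
Each point is a miRNA arm with a RefSeq mature sequence, at its GC content in percent and its log2 fold change of PANDORA-seq over traditional-seq with TMM scaling, in grey for arms outside the family, orange for the family's 5p arms and green for its 3p arms. let-7f, let-7g, let-7i and, less far, miR-98 lie below 0, let-7a, let-7b, let-7c and let-7e lie above 1, and let-7d lies between.

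Reads of the family were shorter in PANDORA-seq. The mean length of 5p reads was 21.6 to 21.9 nt in traditional-seq and 20.1 to 21.1 nt in PANDORA-seq, depending on the member. All 9 members were called shorter (limma on mean length, adjusted p under 0.05), but so were 128 of 143 miRNA classes (89.5%), with a median difference of -0.85 nt over all. let-7i and miR-98 were shorter by 0.75 nt, near that median, and let-7g and let-7f by 1.57 and 1.64 nt.

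The reads behind this difference are shown for let-7f, let-7g and let-7i, since they contrast in their shortest form. Sequences are read letters, with T for U, and capitals mark the bases after position 17.
let-7f, 22 nt: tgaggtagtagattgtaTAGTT
let-7f, 21 nt: tgaggtagtagattgtaTAGT
let-7f, 17 nt: tgaggtagtagattgta
let-7g, 22 nt: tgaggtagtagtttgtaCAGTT
let-7g, 21 nt: tgaggtagtagtttgtaCAGT
let-7g, 17 nt: tgaggtagtagtttgta
let-7i, 22 nt: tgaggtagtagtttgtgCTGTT
let-7i, 21 nt: tgaggtagtagtttgtgCTGT
let-7i, 17 nt: tgaggtagtagtttgtg

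For every member the most frequent read was the 22-nt mature sequence in traditional-seq, with 59.3% to 88.3% of its 5p reads on average, and the 21-nt form without the last U in PANDORA-seq, with 43.1% to 74.3%. For let-7f the 22-nt read made up 73.3% ± 3.18 in traditional-seq (SD, n = 14) and 12.5% ± 1.55 in PANDORA-seq (SD, n = 16). Its 21-nt read moved the other way, from 19.1% ± 1.78 to 53.2% ± 4.59. In miRNA reads outside the family the share of 22 nt also fell, from 48.2% to 16.2%, and that of 21 nt rose from 25.8% to 32.6%.

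A further form of 17 nt was seen in PANDORA-seq. It made up 12.3% to 32.6% of let-7f-5p reads (median 21.3%), 12.6% to 24.4% of let-7g-5p reads (median 20.3%) and 8.59% to 18.1% of let-7d-5p reads (median 13.9%). These members had at most 0.0429% of reads of that length in any traditional-seq library. let-7e had 7.73% to 13.5%, let-7b 3.82% to 5.06%, miR-98 0.309% to 4.47% and let-7i 0.256% to 0.885%. let-7i thus lay below the other 6 members that can be told apart at this length, save for an overlap with miR-98, and reads of 17 nt were 1.70% of the miRNA reads outside the family.

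let-7a and let-7c are identical over their first 18 bases, so their own reads cannot be that short and the forms fall to the group shared by both. That group grew from 0.137% to 3.74% of the family's reads. It consisted of the read tgaggtagtaggttgta for 89.5% in PANDORA-seq, and of the read longer by 1 base, tgaggtagtaggttgtat, for 98.9% in traditional-seq. In let-7f the 18-nt read was likewise the main short form of traditional-seq, at 1.81% against 0.0149% for 17 nt. Counted with all reads they share, let-7a, let-7b and let-7c had 6.93% ± 0.665 of reads at 17 nt in PANDORA-seq and 0.0233% ± 0.0097 in traditional-seq, and a mean length of 20.6 and 21.8 nt.

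**Figure D3:**
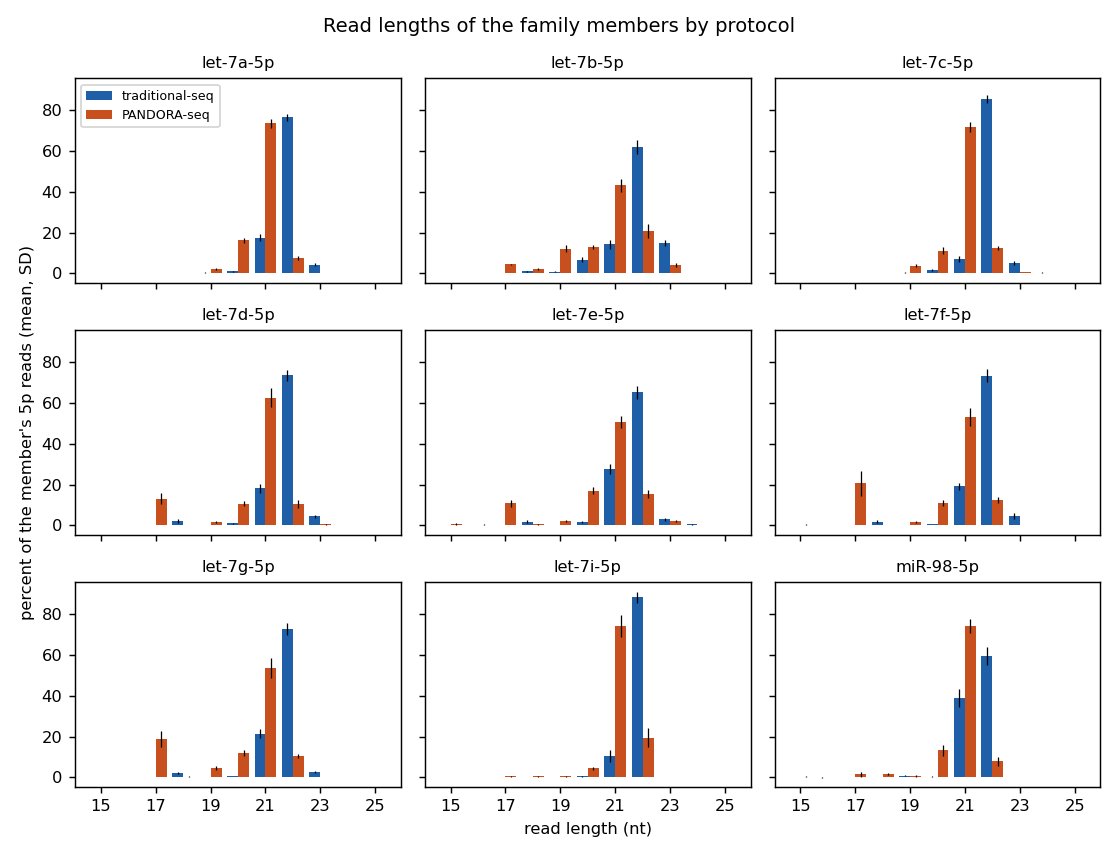
Bars give the mean percent of each member's 5p reads at each length from 15 to 25 nt, with SD over 14 traditional-seq libraries (blue) and 16 PANDORA-seq libraries (orange). The peak stands at 22 nt in traditional-seq and at 21 nt in PANDORA-seq for every member, and let-7d, let-7e, let-7f and let-7g show a further peak at 17 nt in PANDORA-seq; let-7a and let-7c cannot show it because their reads of that length are shared.

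The 5′ end of the reads, which sets the seed, was nearly invariant. At least 99.1% of each member's 5p reads began at the annotated first base in both protocols. The reads that began elsewhere were called higher in PANDORA-seq for 6 of 9 members (let-7a, b, c, e, f and i; background 60.7% higher) and lower for let-7d and let-7g (background 17.9% lower), by limma on the log2 ratio of reads off and on the start. let-7b rose most, from 0.0243% to 0.443% of reads. let-7d and let-7g had the most such reads in both protocols, at 0.857% and 0.661% in traditional-seq and 0.724% and 0.548% in PANDORA-seq, mostly 1 base upstream, which shifts the seed by 1 base.

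Added C and A at the 3′ end marked the traditional-seq libraries. Tails were counted as 1 to 3 bases of 1 kind that follow a match of at least 18 nt and do not match the hairpin. C tails were on 8.47% to 10.2% of each member's reads in traditional-seq and on 0.221% to 0.384% in PANDORA-seq, alike over the members. C and G tails had been planned as the level of sequencing error. By means, the A and U tails of every member lay below its C tails in traditional-seq. C tails were called lower in PANDORA-seq for 9 of 9 members, beside 98 of 101 mature miRNAs. A tails were called lower in PANDORA-seq for all 9 members, as for 97.1% of 102 mature miRNAs tested. let-7b kept the most, with 7.28% ± 0.827 in traditional-seq and 5.80% ± 1.19 in PANDORA-seq, whereas let-7f fell from 2.57% ± 0.503 to 0.204% ± 0.0454. G tails were called lower for 7 of 9 members and higher for 1, beside 78 lower and 3 higher of 101 mature miRNAs. For miR-98 they went from 0.642% ± 0.417 to 2.18% ± 2.27.

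Counted U tails differed between the members, and this count depends on the hairpin base that follows each mature end. In traditional-seq let-7e had 6.10% to 10.3% of reads with a U tail (median 8.44%), let-7i 4.43% to 7.00% (median 5.73%), let-7b 2.26% to 4.57% (median 3.56%) and miR-98 1.52% to 2.84% (median 2.06%). The other 5 members stayed at or below 0.355% in any library, below the range of each of these 4. Among the 4, neighbouring ranges overlapped. In 4 of 9 members U tails were called lower in PANDORA-seq by limma (background 82.1% lower of 106), by -1.31 for let-7b, -2.94 for let-7e, -3.70 for miR-98 and -3.80 for let-7i on the log2 scale. They were called higher for let-7f by 1.69 and for let-7g by 0.74 (background 5.66% higher). In PANDORA-seq the U tails of let-7g lay below its C and G tails, and those of let-7f lay above, by mean and median. Mean U, C and G tails were 0.326%, 0.263% and 0.254% for let-7f and 0.133%, 0.336% and 0.323% for let-7g. The medians were 0.316%, 0.227% and 0.129% for let-7f and 0.126%, 0.234% and 0.181% for let-7g. The ranges overlapped, and G tails of let-7f reached 2.06% in 1 AD library. A base that matches the hairpin is never counted as a tail, so a U added to a mature end that U follows in the hairpin is not seen. For let-7b, a 23-nt read with a further U that matches its hairpin made up 14.8% of 5p reads in traditional-seq. Members can therefore differ in counted U tails through the hairpin base alone, and a difference in added U cannot be told from these counts. Of the reads of let-7f-5p in traditional-seq, 230698 fit Mirlet7f-2 and not Mirlet7f-1, and 7094 the reverse, and a U added to a read of Mirlet7f-1 cannot be told from a longer read of Mirlet7f-2.

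**Figure D4:**
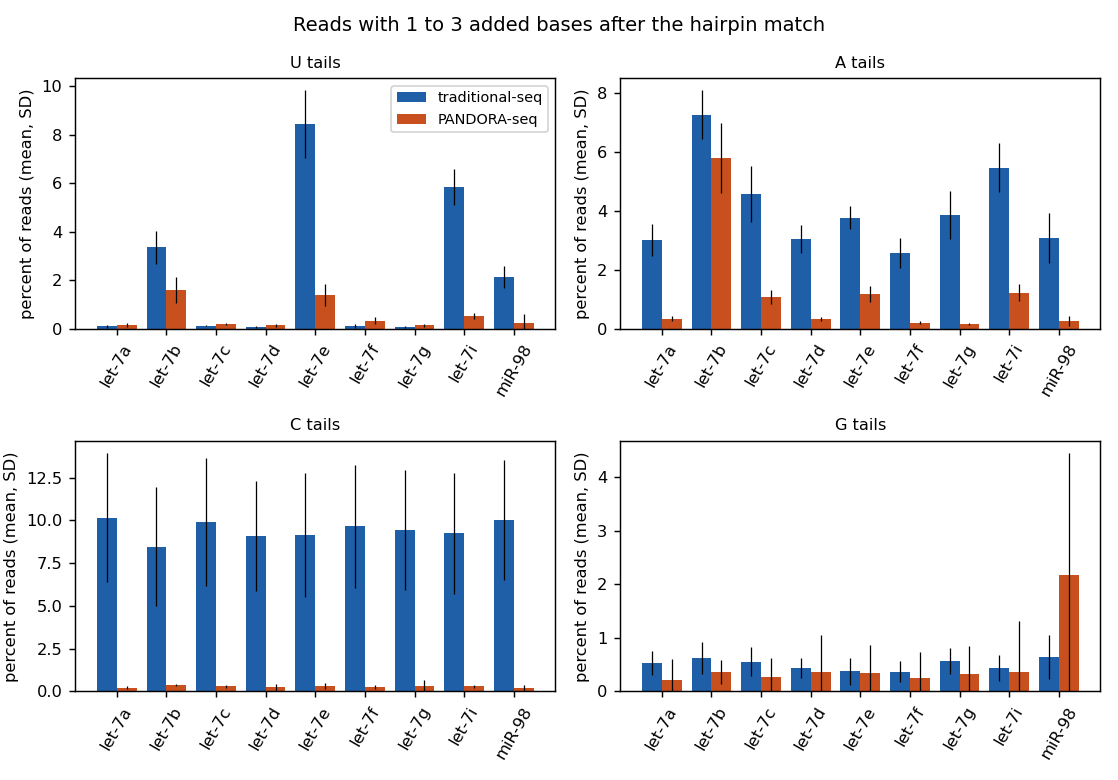
Bars give the mean percent of reads of each member's 5p arm that end in 1 to 3 added U, A, C or G, with SD over libraries (14 traditional-seq, blue; 16 PANDORA-seq, orange) and lower error bars cut at 0. C tails stand near 9% for every member in traditional-seq only, and in the same protocol U tails are highest in let-7b, let-7e, let-7i and miR-98. A U that matches the hairpin is not counted, so the U bars do not compare the members in added U.

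The 3p strand, which is mostly degraded after loading, made up 0.305% ± 0.0971 of the family's reads in traditional-seq (SD, n = 14) and 1.49% ± 0.624 in PANDORA-seq (SD, n = 16). let-7d was the exception among the members. Its 3p arm gave 13% to 32.5% of its reads in traditional-seq (median 22.3%) and 12.3% to 56.9% in PANDORA-seq (median 30.1%), and these ranges overlapped. let-7e and miR-98 had 1.18% and 1.37% in traditional-seq, let-7a, b and c together 0.393%, and let-7f, let-7g and let-7i 0.00795% or less each. The 3p reads of let-7g numbered 95 over all 14 traditional-seq libraries and 37 over all 16 PANDORA-seq libraries.

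Of the members compared, the 3p over 5p ratio was called higher in PANDORA-seq for let-7b, let-7d, let-7f and let-7i (limma, background 43.2% higher) and lower for let-7e and miR-98 (background 38.4% lower). On the log2 scale the differences were 0.86 for let-7b, 0.61 for let-7d, 3.50 for let-7f, 5.43 for let-7i, -0.58 for let-7e and -2.58 for miR-98. The sizes for let-7i and miR-98 rest on few reads and in part on the pseudocount. All traditional-seq libraries together held 122 3p reads of let-7i, and all PANDORA-seq libraries 55 of miR-98, with none in some libraries. With reads of 20 to 24 nt the calls of let-7i (1.25, adjusted p = 0.082 by limma) and let-7e (-0.43, adjusted p = 0.0925 by limma) were lost, and with a minimum of 10 reads that of let-7d was (adjusted p = 0.0526 by limma). For let-7g the difference was 0.09 ± 0.57 (SE; adjusted p = 0.89 by limma), at the low read numbers above, and it went to 0.92 with a pseudocount of 5 (adjusted p = 0.0076 by limma) and to -0.92 with reads of 20 to 24 nt. Reads shared between members are not in these ratios. let-7b has 317 and 53682 such 5p reads with let-7a and let-7c, beside 135698 and 904734 of its own, and let-7a and let-7c share more, so that no value between the protocols is given for them.

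Most 5p reads fit both copies of let-7a, let-7c or let-7f, while the 3p arms of the copies differ in sequence. The 3p reads that fit only 1 copy of let-7f were mostly from Mirlet7f-2 (177 reads in traditional-seq and 613 in PANDORA-seq) over Mirlet7f-1 (123 and 344). For let-7c they were mostly from Mirlet7c-1 (597 and 858) over Mirlet7c-2 (10 and 362), but Mirlet7c-2 and Mirlet7a-1 share a further 3941 and 17920 reads.

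AD and WT were first compared by traditional-seq. let-7f-5p had 15120 to 45387 RPM in WT (median 22528) and 19609 to 47026 in AD (median 29674), let-7i-5p 17291 to 30548 (median 21254) and 20787 to 28427 (median 25522), and let-7g-5p 10250 to 19339 (median 17587) and 13361 to 25178 (median 19142). The groups overlapped for each. In the edgeR test their log2 fold changes were 0.30 ± 0.37, 0.25 ± 0.21 and 0.33 ± 0.20 (SE, n = 7 and 7). The other 5p arms lay between 0.02 for miR-98 and 0.24 for let-7a.

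No member was called between AD and WT in traditional-seq. Of 510 classes none was called (0%), with edgeR's quasi-likelihood test, its likelihood ratio test or DESeq2, and 9 had an unadjusted p under 0.05, none of them in the family. Of the family's 19 classes tested 14 were positive with a median log2 fold change of 0.06, beside 0.03 over all classes, and 9 to 10 were positive with DESeq2's size factors or all reads as size. Leaving out 1 library at a time gave 8 to 14 positive. The lowest count came without WT replicate 2 (median -0.089) or WT replicate 5 (median -0.020). The smallest adjusted p of the family was 1 by edgeR. In simulated counts built on these libraries, the adjusted p alone called 63.2% of changes of 2-fold and 91.4% of changes of 4-fold. The fold threshold was not applied there, so these are not the shares of the full calling rule. Of the 484 simulated classes tested, 95 were changed 2-fold and 93 were changed 4-fold. The adjusted p is more lenient with so many changes, so these shares do not hold where few classes change.

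In PANDORA-seq the AD values reached higher for several members. let-7c-5p had 690 to 2857 RPM in WT (median 1381) and 1264 to 13510 in AD (median 2436). let-7b-5p had 199 to 966 (median 338) and 348 to 4454 (median 569), and let-7a-5p 450.0 to 1410 (median 797) and 319 to 5484 (median 1282). The groups overlapped for each, and the highest AD value was AD replicate 1 in all 3, where the next AD value was 4254 for let-7c, 1394 for let-7b and 1636 for let-7a.

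let-7d-5p had 107 to 238 RPM in WT (median 153) and 64.3 to 460 in AD (median 266), let-7e-5p 66.1 to 292 (median 131) and 113 to 927 (median 216), and let-7g-5p 370 to 1238 (median 832) and 271 to 1937 (median 966). let-7f-5p had 514 to 1509 (median 900.0) and 278 to 2886 (median 1139), let-7i-5p 451 to 2607 (median 906) and 392 to 1854 (median 1093), and miR-98-5p 9.67 to 29.6 (median 15.1) and 4.48 to 34.3 (median 19.3). These groups overlapped too, with the lowest AD value below the lowest WT value for 5 of the 6.

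**Figure D5:**
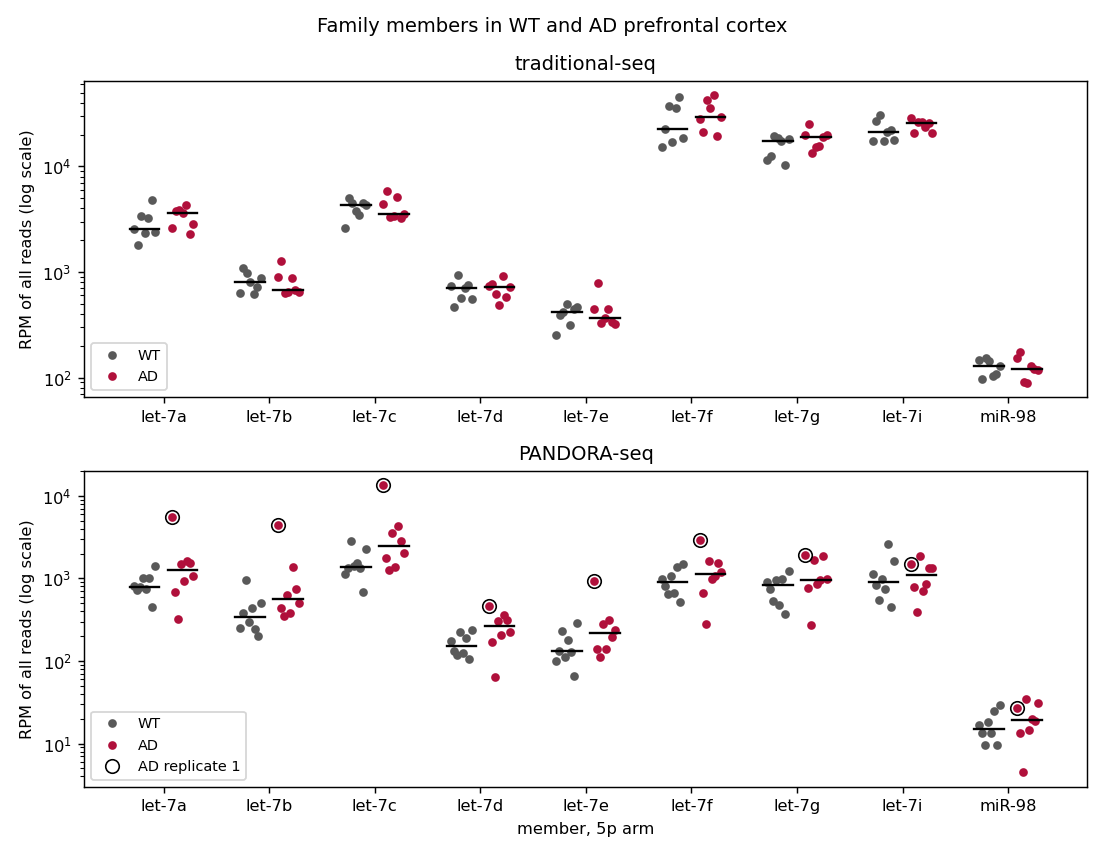
Each point is the RPM of all reads (log scale) of 1 member's 5p arm in 1 library, with grey for WT, red for AD, black bars for medians, traditional-seq above (7 and 7 libraries) and PANDORA-seq below (8 and 8). WT and AD overlap for every member in both protocols, and the ringed AD replicate 1 is the highest PANDORA-seq library for 7 of 9 members, all but let-7i and miR-98.

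No class of the family was called between AD and WT in PANDORA-seq, where 1 of 700 classes was (0.143%). Of its 20 classes 18 were positive, with a median log2 fold change of 0.72 beside 0.05 over all classes. An unadjusted p under 0.05 was found for 11 of 20 (55%), beside 85 of 700 (12.1%), and the smallest adjusted p was 0.278 by edgeR. Without AD replicate 1, 17 of 20 were positive, the median was 0.33 and 2 of 20 had an unadjusted p under 0.05, beside 66 of 721 classes. Leaving out another library gave 6 of 20 (WT replicate 5 or AD replicate 6) to 13 of 20 (AD replicate 5), with 7 of 20 without WT replicate 4 or AD replicate 7, and the replicate block gave 3 of 20, beside 38 of 700. Replicate numbers do not pair the libraries, so that block spends degrees of freedom without a known pairing. The family's classes share libraries and, in part, transcripts, so they do not count as separate observations.

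The log2 fold changes in PANDORA-seq were 1.28 ± 0.53 for let-7b-5p, 1.16 ± 0.45 for let-7c-5p, 0.85 ± 0.39 for let-7a-5p and 0.81 ± 0.40 for let-7e-5p (SE; adjusted p from 0.323 to 0.439 by edgeR). Without AD replicate 1 they were 0.41, 0.44, 0.16 and 0.20. let-7d-5p and let-7g-5p moved less when that library was left out, from 0.61 to 0.36 and from 0.53 to 0.30. let-7f-5p went from 0.37 to -0.01, let-7i-5p from -0.06 to -0.21 and miR-98-5p from 0.16 to 0.00. The group shared by let-7a and let-7c, the 17-nt reads, went from 1.07 ± 0.41 to 0.40. In simulated counts built on the PANDORA-seq libraries the adjusted p alone called 39.6% of changes of 2-fold and 93.4% of changes of 4-fold. Here too the fold threshold was not applied, and the simulated 2-fold changes had a median absolute log2 fold change of 0.93. Of the 681 simulated classes tested, 96 were changed 2-fold and 91 were changed 4-fold. These shares, too, do not hold where few classes change.

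Whether the genotype difference itself differed between the protocols was tested with an interaction term. No class of the family was called, as none of 938 was (0%), and 55 of these had an unadjusted p under 0.05, 5 of the 21 in the family. Without AD replicate 1 these counts were 40 of 927 and 1 of 21, and with the library code as a block 26 of 938 and 0 of 21. The smallest adjusted p of the family was 0.712 by edgeR. Of 21 classes 20 were positive, that is, more AD over WT in PANDORA-seq, with a median of 0.78, beside 565 of 938 over all classes with a median of 0.16. Without AD replicate 1 it was 18 of 21 with a median of 0.50, beside 566 of 927 with a median of 0.19, and with the code block 19 of 21 with a median of 0.49, beside 580 of 938 with a median of 0.20. In bulk tissue, fewer cells of a type and less RNA per cell cannot be told apart.

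Summed levels of marker miRNAs of cell types were set beside these values. In PANDORA-seq the 3 blood miRNAs (miR-451a, miR-144 and miR-486) were at 84.3 to 275 RPM in WT (median 120) and 91.9 to 1637 in AD (median 201). This sum was mostly miR-486, with medians of 108 RPM in WT and 192 in AD. The list did not move as a whole, since miR-451a had medians of 7.40 and 7.58 and miR-144 of 0.883 and 0.806. In traditional-seq they were at 131 to 346 RPM in WT (median 299) and 98.6 to 345 in AD (median 214). The 4 miRNAs of microglia and leukocytes (miR-223, miR-142, miR-155 and miR-146) had medians of 101 RPM in WT and 150.3 in AD by traditional-seq, with a range up to 202 and 674, and of 8.78 and 13.3 by PANDORA-seq. This sum was mostly miR-146, with traditional-seq medians of 79.3 and 135 RPM. There miR-142 had 18.2 and 20.5, miR-155 had 0.759 and 1.76, and miR-223 went the other way, at 1.26 and 1.07. The 2 oligodendrocyte miRNAs (miR-219a and miR-338) had medians of 506 and 858 RPM by traditional-seq and of 62.1 and 65.4 by PANDORA-seq. The 3 vessel miRNAs (miR-126a, miR-143 and miR-145a) had medians of 7274 and 7022 RPM and of 94.6 and 92.3, and the 5 neuronal and cortical ones of 140605 and 128327 and of 4329.8 and 3849. These lists did not move as a whole. In PANDORA-seq, AD medians were higher for miR-124 (102 to 169) and miR-9 (1668 to 1928). They were lower for miR-128 (2205 to 1854), miR-132 (30.5 to 21.7) and miR-138 (7.14 to 6.65). In traditional-seq each neuronal median was lower in AD, while miR-126a fell (5218 to 4272) and miR-143 rose (3035 to 3831). WT and AD overlapped for each list in both protocols, and no tested class of these miRNAs was called between them. The part of these levels in the family's values was not tested.

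Length, ends and tails showed no called difference between AD and WT in any member. In traditional-seq no miRNA was called for mean read length (0% of 207), off-start reads (0% of 175), U tails (0% of 169) or A tails (0% of 168), with 0, 9, 8 and 2 at an unadjusted p under 0.05. In PANDORA-seq 2 of 199 classes were called for mean read length (1.01%), none of them in the family, and none for off-start reads (0% of 140), U tails (0% of 118), A tails (0% of 118) or arm balance (0% of 152), with 9, 5, 6 and 9 at an unadjusted p under 0.05. These were tests with limma alone.

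The arm balance of let-7a in traditional-seq was the single called value, 1 of 165 hairpins (0.606%), and it rests on few reads. In WT the 3p reads that fit let-7a alone numbered 2, both in replicate 1, with 0 in the other 6 libraries, which allows up to 0.207 to 0.298 RPM in each. In AD they numbered 45, from 1 to 15 per library and in 7 of 7 libraries. Of these 47 reads 43 fit Mirlet7a-2 and 4 Mirlet7a-1. The log2 difference of the 3p over 5p ratio, without shared reads, was 2.80 ± 0.60 (SE; adjusted p = 0.040 by limma). With a pseudocount of 5 reads in place of 0.5 it was 0.77 (adjusted p = 0.985 by limma). Leaving out 1 library at a time, chosen after seeing the data, gave adjusted p-values from 0.011 to 0.126 by limma, and the call held in 3 of 14 fits, those without WT replicate 1, WT replicate 2 or AD replicate 2. In PANDORA-seq, 20 such reads were found in WT and 35 in AD, in 6 of 8 libraries each, and the difference was 0.14.

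Among miRNAs that share a primary transcript with let-7 hairpins, 5p arms of 5 were compared, and 2 were called lower and 2 higher in PANDORA-seq with TMM scaling, where 26% of all classes were lower and 55% higher. With all reads as size all 5 values were negative, where 462 of 938 classes were called lower and 313 higher. The 5p arm of Mir99a, beside Mirlet7c-1, had a log2 fold change of -4.55 ± 0.38 (SE) in PANDORA-seq over traditional-seq, whereas let-7c-5p had 1.86. Most let-7c-5p reads fit both Mirlet7c-1 and Mirlet7c-2, so that value cannot be assigned to the copy beside Mir99a. The same holds for let-7a and the copy beside Mir100. Mir100, beside Mirlet7a-2, had -2.99 ± 0.21 and Mir99b, beside Mirlet7e, -0.87 ± 0.20, which is not past the fold threshold. Mir125a had 1.31 ± 0.27 and Mir125b 1.48 ± 0.17, on the side of let-7e, let-7c and let-7a. With all reads as size the values were -7.13 for Mir99a, -5.51 for Mir100, -3.42 for Mir99b, -1.30 for Mir125a and -1.14 for Mir125b, beside -0.73 for let-7c, -1.39 for let-7a and -0.96 for let-7e. Of their 3p arms 4 were tested with TMM scaling, at 1.39 for Mir99a, 3.38 for Mir125a, 0.65 for Mir125b and -0.67 for Mir99b, so with this scaling the arms of Mir99a had opposite signs. None of the 5p arms was called between AD and WT in either protocol. Mir99a-5p ran from 418 to 46087 RPM in traditional-seq and from 58.8 to 322 in PANDORA-seq.

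Across all 30 libraries the features whose log2 RPM followed the family's summed 5p reads most closely were the 5p arm of Mir99b, the 3p arm of Mir30c and the 3p arm of Mir99b, with root mean square differences of 0.450, 0.478 and 0.50 among 131 features compared. The members themselves ranged from 0.574 for miR-98 and 0.602 for let-7g to 1.26 for let-7c and 1.48 for let-7b. All these values share the difference in depth and composition between the protocols.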

How the data were processed

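Small RNA of 15 to 50 nt, cut from a gel, was sequenced from mouse prefrontal cortex in 30 libraries, grouped by genotype and protocol as the labels give them. The authors deposited, for each library, every cleaned read sequence of 15 to 45 nt with its count, and no coordinates or alignments. The submitters' processing notes name the genome build mm39, whereas the hairpins and annotation used here were GENCODE vM21 (GRCm38). The counts as deposited were summed over reads that match 1 of 2201 miRNA hairpin genes whole, sense and without a mismatch; copies with the same mature miRNA were merged, and other reads that fit several hairpins stayed in shared groups. An exact match loses edited, mismatched and tailed reads, so tails were counted separately. RPM is scaled to 1000000 reads of a library. Reads have no molecular identifiers.

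Class counts were tested with edgeR 4.0.16 (TMM, filterByExpr, quasi-likelihood F test), in place of the likelihood ratio test that the study used and that was run as an alternative, with Benjamini-Hochberg adjustment over all classes and DESeq2 1.42.0 as a further alternative. Calls required a change of more than 2-fold with the adjusted p below 0.05. The SE given with an edgeR log2 fold change is an approximation, its absolute value divided by the square root of the F statistic. Arm balance, mean length, off-start reads and tails were tested with limma 3.58.1 on log2 ratios with a pseudocount of 0.5 (length in nt), for classes with at least 100 reads in every library, and called at the adjusted p alone. Named were all members, shared groups with at least 1% of the family's reads, co-transcribed miRNAs, miRNAs with the same seed and the 3 features most like the family; let-7k, the position 12 bases, and the let-7a 3p reads were described after their values were seen. The members and lists were chosen with earlier results of these data known. The fits were tested on simulated data with known changes. Replicate numbers do not pair the libraries. Scripts used R 4.3.3 and Python 3.11.15.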

Additional observations from a re-analysis of the deposited data

Results flagged for a closer look

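Of 60 groups of libraries examined, 10 held a library far from the others of its group, at a limit that chance passes in about 1 of 20 groups. In 7 of these the library was AD replicate 1 of PANDORA-seq. There the family reached 33604 RPM, beside 3322 to 12098 in the other 7 libraries of that group, and 60.7% of the miRNA reads, beside 22% to 38.3%. Its levels were 5484 RPM for let-7a-5p, 4454 for let-7b-5p, 13510 for let-7c-5p, 927 for let-7e-5p and 1628 for the group shared by let-7a and let-7c. In this library miR-486 was at 1629 RPM, and it held the highest miRNA share of the PANDORA-seq libraries, 5.54%; the part of either in these levels was not tested. The traditional-seq library of AD replicate 2 had 1259 RPM of let-7b-5p, beside 633 to 897 in the others, and 787 of let-7e-5p, beside 320.2 to 449. The PANDORA-seq library of WT replicate 3 had 966 RPM of let-7b-5p, beside 199 to 508.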

How the results depend on the processing

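Scaling set the direction of the protocol difference. With all reads as library size, log2 fold changes turned negative for let-7a (-1.39), let-7b (-0.27), let-7c (-0.73), let-7d (-1.71) and let-7e (-0.96) and for the 3p arms of let-7a with let-7c (-0.83), let-7c (-1.93), let-7d (-0.88), let-7e (-1.69), let-7f (-1.35) and let-7i (-0.058); let-7f, let-7g and let-7i were lower under every alternative. miR-98 turned positive with DESeq2 (0.071), its size factors (0.070), reads of 20 to 24 nt (0.31) and hairpins with a RefSeq mature miRNA (0.21, chosen after seeing the data). The 760 calls became 1688 without the filter, 488 with reads of 20 to 24 nt and 461 with RefSeq hairpins.

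For AD against WT in traditional-seq, near-zero values changed sign: miR-98 with DESeq2 (-0.035), its size factors (-0.035), all reads as size (-0.0072) and 20 to 24 nt (-0.015), and let-7b with all reads as size (-0.030). Leaving out 1 library gave -0.12 to 0.10 for miR-98, -0.059 to 0.14 for let-7b and -0.10 to 0.13 for let-7d. In PANDORA-seq it gave -0.014 to 0.45 for let-7f, -0.21 to 0.16 for let-7i and 0 to 2 calls over all classes (0 without WT replicate 1 or AD replicate 2, 2 without WT replicate 8 or AD replicate 5), which were 1 in the main analysis, 4 with the likelihood ratio test, 3 with DESeq2 and 0 with all reads as size, no filter or 20 to 24 nt. None of these calls was in the family. The interaction had 1 call with the likelihood ratio test and 2 with DESeq2, and its let-7f value changed from 0.09 to -0.057 without the filter, -0.040 with shared reads divided and, both chosen after seeing the data, -0.20 without AD replicate 1 and -0.17 with the library code as block.

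Replicate numbers do not pair the libraries: deviations of same-numbered WT and AD libraries correlated from -0.42 to 0.44 in traditional-seq and from -0.52 to 0.44 in PANDORA-seq, over 0.1 in 3 of 7 and 2 of 8 pairs. With the replicate block, AD against WT had 0 calls in each protocol and the protocol comparison 756. let-7a-5p fell below the 2-fold threshold between the protocols with this block (0.93), and also with the library code as block (0.80) or shared reads divided (0.92).

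With a minimum of 10 reads, calls between the protocols were 170 for arm balance, 255 for length, 160 for off-start reads, 193 for U tails and 196 for A tails, since more classes were tested. The let-7a arm call became 0 calls with a pseudocount of 5 or a minimum of 10 reads and 0 to 1 leaving out a library, and the let-7g arm value was 0.92, past the threshold, with a pseudocount of 5 and -0.92 with 20 to 24 nt, where let-7i (1.25) and let-7e (-0.43) lost their calls. The length calls in PANDORA-seq became 0 with 18 to 26 nt. Per 1000000 miRNA reads the family was at 178647 in WT and 207758 in AD by traditional-seq and at 252253 and 321744 by PANDORA-seq, where AD without replicate 1 was at 281030. Causes were not tested.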
